A study of Mus musculus with 64 samples.

Results

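The genes described here are 10 genes of hepatic fatty acid synthesis: 8 lipogenic enzymes and effectors (Acly, Acaca, Acacb, Fasn, Me1, Thrsp, Pklr and Pnpla3) and the genes of their 2 main transcription factors, Srebf1 (SREBP-1) and Mlxipl (ChREBP). They were taken by gene symbol from a count table of 53008 genes, and all 10 were among the 17318 genes with enough counts to test. The table comes from RNA sequencing of mouse liver in 4 groups of 4 libraries: wild type mice (WT) on chow, WT mice on a high-fat diet (HFD), and humanized HuMgat2 mice, which express human MOGAT2, on each of the same diets. MOGAT2 is an acyltransferase that makes diacylglycerol and is best known from fat absorption in the gut. Each diet lasted 16 weeks. The labels used here give neither the background strain, sex and age of the mice nor the composition of the HFD, and they do not say which promoter drives human MOGAT2 or in which cells. They also do not say that the 4 libraries of a group are from separate animals, so the p-values below measure the spread between these libraries, which may be technical in part.

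In de novo lipogenesis, ATP citrate lyase (Acly) makes cytosolic acetyl-CoA, the acetyl-CoA carboxylases (Acaca, Acacb) make malonyl-CoA, and fatty acid synthase (Fasn) builds palmitate with NADPH, part of which comes from malic enzyme (Me1). SREBP-1c, made from Srebf1, is released from the endoplasmic reticulum membrane by the SCAP and INSIG system and carries the response to insulin. ChREBP, made from Mlxipl, is activated by sugar metabolites and binds DNA with its partner MLX. Pklr, the liver pyruvate kinase gene, is the textbook ChREBP target, Pnpla3 is a well-known SREBP-1c target, and most of the synthesis enzymes respond to both factors.

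Libraries are numbered as in the table's column names. Total counts ran from 12422647 to 25812129 per library, and the 10 genes together took 0.171% to 0.825% of them. WT HFD library 4 stood apart: it had the fewest counts, 0.85% of its counts from albumin against 3.26% to 6.02% in the other libraries, and a median rank correlation with its own group of 0.954 against 0.978 to 0.99 elsewhere. All 10 genes were below their group mean in that library, so the WT diet differences of the 10 genes are also given without it. Summed hepatocyte markers (7 genes) ran from 31700 to 77700 CPM, with the lowest value among the WT HFD libraries. Albumin alone held 8390 to 57560 CPM of these sums. Mouse Mogat2 had between 0 and 12 counts in every library, too few for a check of the genotype labels. In bulk liver, fewer cells of a type and less RNA per cell cannot be told apart.

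Sequence before annotated transcript starts was read for all 10 genes from RefSeq on GRCm38.p6, as 15 windows of 250 bases. That build is older than the GRCm39 of the counts, and an annotated start need not be the first start of a gene. Each window was searched on both strands for the sterol response element TCACNCCAC, the E-box CACGTG, the carbohydrate response element (ChoRE, a pair of E-box-like hexamers, CANGNG and CNCNTG, 5 bases apart) and CCAAT. The 3 stretches below are shown because they hold matches to the first 3 of these motifs: a ChoRE upstream of Pklr, and an E-box and a sterol response element upstream of Mlxipl. Capitals mark the match.
Pklr, chr3:89136423-89136499, plus strand: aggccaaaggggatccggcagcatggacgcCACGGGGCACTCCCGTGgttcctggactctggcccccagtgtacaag
Mlxipl, chr5:135089762-135089827, plus strand: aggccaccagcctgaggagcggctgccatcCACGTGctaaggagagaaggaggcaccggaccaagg
Mlxipl, chr5:135106725-135106793, plus strand: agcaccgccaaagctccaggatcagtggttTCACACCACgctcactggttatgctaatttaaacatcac

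The Pklr match lay 170 to 154 bases before the second of its 2 annotated starts. ChoRE letters occurred in 0.454% of all 32851 promoter windows of the same length, E-box letters in 6.02% and sterol response element letters in 1.05%. The other windows held no match to these 3 elements. By the offset between builds at Acly and Fasn, the single Acaca window (chr11:84195188-84195437) lay inside the gene as counted. The stretch before the first counted start of Acaca was therefore not searched. CCAAT, the letters bound by NF-Y, a usual companion of SREBP, was in 33.8% of all windows and in 9 of these 15, with 3 matches for Fasn and 2 each for Thrsp and, over its 3 windows, Srebf1. These are matches of letters and show no binding.

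Srebf1 (ENSMUSG00000020538, chromosome 11, 60089915 to 60113407, minus strand, GRCm39) was highest in WT mice on HFD. Its levels in CPM, the share of a library's total count on a per-million scale with TMM scaling of the total, were 205.8, 198.2, 186.2 and 176.3 in the WT chow libraries and 480.3, 641.1, 600.5 and 295.4 in the WT HFD libraries, with no overlap. The rise was 2.63-fold (95% interval 1.9 to 3.66; adjusted p = 8.11e-04, edgeR), and without WT HFD library 4 the log2 change went from 1.40 to 1.58. In HuMgat2 mice the levels were 168.9, 232.1, 170.9 and 122.2 CPM on chow and 207.5, 247.9, 308.5 and 332.5 CPM on HFD, and the ranges overlapped in 1 library of each diet. That difference of 1.58-fold (interval 1.14 to 2.18) did not pass the test (adjusted p = 0.0574). It passed without HuMgat2 HFD library 9 (0.0384), HuMgat2 chow library 14 (0.0234) or WT HFD library 4 (0.011), which enters only the shared estimate of the spread, and in 3 of the other fits, given with the processing alternatives. Between the genotypes on HFD, the HuMgat2 level was 1.84-fold below the WT level (274.1 ± 56.9 against 504.3 ± 155 CPM, SD, n = 4; adjusted p = 0.0145, or 0.0533 when only HFD libraries were fitted), although WT library 4 lay inside the HuMgat2 range. Counts do not separate SREBP-1a from SREBP-1c, which share most exons of the gene.

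Pnpla3 (ENSMUSG00000041653, chromosome 15, 84052038 to 84071437, plus strand), a lipase-family protein on lipid droplets, rose on HFD in both genotypes. WT chow libraries had 0.4725, 0.6478, 0.272 and 0.4943 CPM, and WT HFD libraries 1.221, 2.879, 4.538 and 1.112 CPM. HuMgat2 libraries had 0.2583, 0.6832, 0.2148 and 0.09363 CPM on chow and 1.058, 1.726, 1.446 and 1.748 CPM on HFD. The diets did not overlap in either genotype. The rise was 5.25-fold in WT (interval 2.59 to 10.7; adjusted p = 0.00382) and 4.45-fold in HuMgat2 (interval 2.08 to 9.53; adjusted p = 0.0106). The values rest on 2 to 112 counts per library. Without WT HFD library 4 the WT log2 change went from 2.39 to 2.61, and without HuMgat2 chow library 14 the HuMgat2 log2 change went from 2.15 to 2.99. Between the genotypes on HFD the log2 difference was -0.741 (interval -1.64 to 0.155; adjusted p = 0.248).

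**Figure D1:**
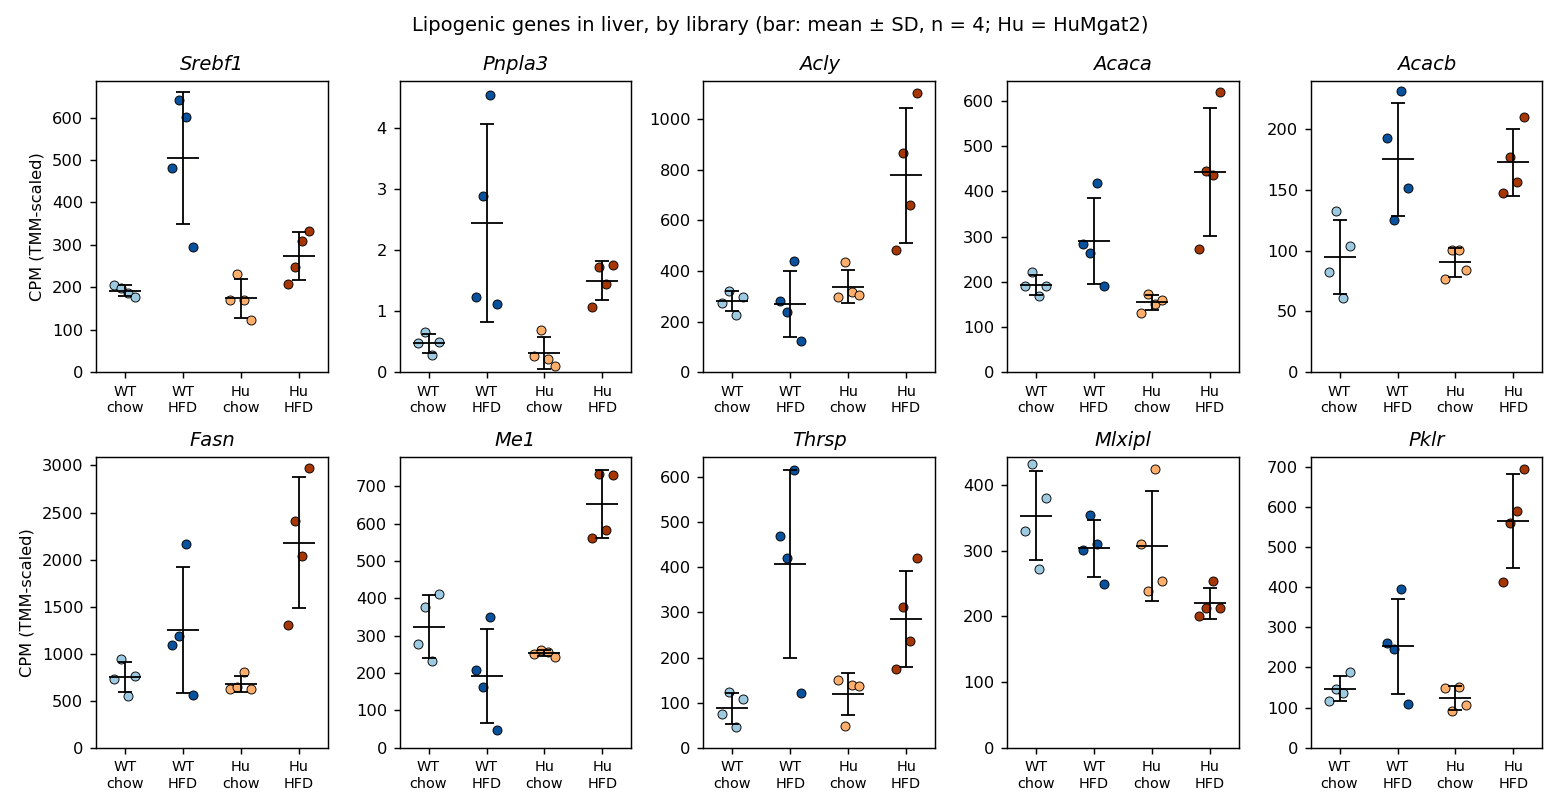
Level of each gene (CPM, linear axis from 0) in the 16 libraries of the 4 groups, with points for libraries and bars for mean ± SD (n = 4 per group). Acly, Me1 and Pklr lie higher in all HuMgat2 HFD libraries than in any library of the other 3 groups, whereas Srebf1 is highest in WT on HFD (480.3 to 641.1 CPM in 3 libraries) and Mlxipl stays between 200.3 and 431.3 CPM.

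Acly (ENSMUSG00000020917, chromosome 11, 100367179 to 100418826, minus strand), the first cytosolic step, rose on HFD in HuMgat2 mice and was not called in WT mice. In WT the levels were 275.1, 320.7, 226.8 and 296.5 CPM on chow and 279.3, 237.8, 440.7 and 122 CPM on HFD, so the HFD libraries lay on both sides of the chow range. The log2 difference was -0.0507 (interval -0.681 to 0.58; adjusted p = 0.938), and it turned to 0.191, 0.0054 and 0.0078 when WT HFD library 4, WT HFD library 2 or WT chow library 6 was left out. In HuMgat2 the chow libraries had 295.8, 435, 316.4 and 306 CPM and the HFD libraries 483.7, 865.6, 661.5 and 1103 CPM, with no overlap. The rise was 2.3-fold (interval 1.48 to 3.58; adjusted p = 0.0135; 0.0529 without HuMgat2 HFD library 12). On HFD the level in HuMgat2 was 2.88-fold that in WT (adjusted p = 0.00343), and all 4 HuMgat2 libraries were above all 4 WT libraries.

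Of the 2 carboxylases, Acacb was called on HFD in both genotypes and Acaca in HuMgat2 only. The difference between the 2 diet changes of Acaca did not pass the test (log2 0.935, adjusted p = 0.111). Acaca (ENSMUSG00000020532, chromosome 11, 84063948 to 84292477, plus strand), whose product supplies malonyl-CoA for synthesis, had WT levels of 190.6, 221.1, 167.7 and 189.9 CPM for chow and 284.5, 264.3, 419.5 and 189.9 CPM for HFD. That 1.51-fold difference did not pass the test (adjusted p = 0.0882), but did without WT HFD library 4 (0.022). In HuMgat2 it rose 2.88-fold (interval 2.06 to 4.03; adjusted p = 3.25e-04), from 131.8, 173.3, 150.5 and 160.4 CPM to 273.2, 444.2, 436.4 and 620 CPM. Between the genotypes on HFD the difference was 1.53-fold (interval 1.1 to 2.13; adjusted p = 0.0759, and 0.0175 without WT HFD library 3 or 0.0244 without HuMgat2 HFD library 9). Acacb (ENSMUSG00000042010, chromosome 5, 114284596 to 114388822, plus strand) encodes the mitochondrial carboxylase, whose malonyl-CoA restrains fatty acid oxidation. Its WT levels were 82.31, 132.4, 61.3 and 103.9 CPM on chow and 192.5, 125.4, 231.1 and 151.7 CPM on HFD, and only 2 of the 8 libraries, chow library 6 and HFD library 2, broke the separation. HuMgat2 libraries had 76.84, 100.1, 100.4 and 83.75 CPM on chow and 147.2, 177.4, 156.4 and 209.6 CPM on HFD, with no overlap. Acacb rose in both genotypes, 1.85-fold in WT (adjusted p = 0.0115) and 1.91-fold in HuMgat2 (adjusted p = 0.00766), and the log2 difference between the 2 diet changes was 0.0516 with an interval of -0.583 to 0.686. The WT call was lost when only WT libraries were fitted (adjusted p = 0.0579), and without WT HFD library 4 the WT log2 change went from 0.884 to 0.946.

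Fasn (ENSMUSG00000025153, chromosome 11, 120696672 to 120715373, minus strand) makes palmitate, and its level was above the chow range in 3 of 4 WT HFD libraries and in all 4 HuMgat2 HFD libraries. WT libraries had 732.2, 941.8, 553 and 761.3 CPM on chow and 1097, 1188, 2167 and 557.5 CPM on HFD, where only library 4 fell inside the chow range. The 1.68-fold WT difference (interval 1.06 to 2.66) had an adjusted p of 0.124, or 0.0165 without library 4. HuMgat2 libraries had 622.7, 649.5, 806.8 and 623.1 CPM on chow and 1309, 2405, 2036 and 2972 CPM on HFD. Fasn rose 3.23-fold there (interval 2.01 to 5.18; adjusted p = 0.00222). On HFD the genotypes differed by 1.74-fold (interval 1.1 to 2.77; adjusted p = 0.0966, and 0.0129 without WT HFD library 3).

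Me1 (ENSMUSG00000032418, chromosome 9, 86463424 to 86578006, minus strand), the cytosolic malic enzyme that yields NADPH, showed opposite signs of the diet difference in the 2 genotypes. In WT it had 277.6, 375.9, 232.1 and 412.5 CPM on chow and 209.3, 162.1, 349 and 47.19 CPM on HFD. The log2 difference was -0.757 (interval -1.53 to 0.0167; adjusted p = 0.178, and 0.0283 without WT HFD library 3), and library 4 held the lowest value, without which it was -0.434. In HuMgat2 it rose 2.58-fold (interval 1.5 to 4.44; adjusted p = 0.0198), from 251.1, 261.2, 257.4 and 242.4 CPM to 562.3, 733.8, 584.4 and 730.2 CPM. The adjusted p of that rise was 0.0532, 0.0507 and 0.0508 without HuMgat2 HFD library 10 or 12 or HuMgat2 chow library 16. On HFD the HuMgat2 level was 3.4-fold the WT level (adjusted p = 0.0051), with no overlap.

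Thrsp (ENSMUSG00000035686, chromosome 7, 97062145 to 97066937, minus strand), the Spot 14 protein that accompanies fatty acid synthesis, rose 4.63-fold in WT on HFD (interval 2.39 to 8.99; adjusted p = 0.00413). Chow libraries had 75.36, 123, 45.7 and 107.3 CPM and HFD libraries 469.7, 420.4, 616.8 and 120.4 CPM, with library 4 just inside the chow range. Leaving out that library took the log2 change from 2.21 to 2.52. HuMgat2 libraries had 150, 48.55, 138.6 and 138 CPM on chow and 173.9, 312.2, 235.6 and 421.7 CPM on HFD, which did not overlap. That 2.41-fold difference (interval 1.26 to 4.59) did not pass the test (adjusted p = 0.0657), but did without WT HFD library 4 (0.0135), with no filter on low counts (0.0287) and with only HuMgat2 libraries fitted (0.0245).

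Mlxipl (ENSMUSG00000005373, chromosome 5, 135118744 to 135167236, plus strand) was called by edgeR in none of the 5 comparisons, and its HFD means were below its chow means in both genotypes. WT libraries had 330.2, 431.3, 272.2 and 379.5 CPM for chow and 300.7, 354.8, 310.4 and 249.2 CPM for HFD. HuMgat2 libraries had 310.1, 239.1, 424.3 and 254.5 CPM for chow and 200.3, 212.8, 254.1 and 213 CPM for HFD. The diets overlapped in both genotypes. Its log2 diet difference was -0.217 in WT (interval -0.592 to 0.158; adjusted p = 0.453; -0.134 without WT HFD library 4) and -0.48 in HuMgat2 (interval -0.856 to -0.105; adjusted p = 0.0847, 0.0429 without HuMgat2 chow library 14, and 0.0481 by DESeq2). On HFD the difference between genotypes was -0.466 (adjusted p = 0.0865, and 0.0478 without WT HFD library 4). Counts per gene do not separate ChREBP-alpha from the shorter ChREBP-beta, which is made from another start of the same gene and is the form most often read as a sign of ChREBP activity.

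Pklr (ENSMUSG00000041237, chromosome 3, 89043449 to 89054091, plus strand), whose promoter holds the ChoRE letters printed above, had the highest point estimate of the 10 fold changes in HuMgat2 mice, close to that of Pnpla3, which was the higher of the pair without HuMgat2 chow library 14. The chow libraries had 149.6, 92.16, 150.5 and 106.7 CPM and the HFD libraries 412.4, 560.5, 590.6 and 695.2 CPM. The rise was 4.53-fold (interval 2.92 to 7.02; adjusted p = 1.49e-04). In WT it had 117.1, 146.6, 136.5 and 189.1 CPM on chow and 261.1, 245.1, 395.8 and 107.9 CPM on HFD, so library 4 lay below every chow library. The 1.72-fold WT difference (interval 1.12 to 2.62) had an adjusted p of 0.0787, or 0.00394 without library 4. On HFD the level in HuMgat2 was 2.23-fold that in WT (adjusted p = 0.0139; 0.0525 when only HFD libraries were fitted), with no overlap. Counting ignored strand, and 711 of the 3236 exonic bases of Pklr (22%) are shared with Hcn3 on the opposite strand. Hcn3 had 8.01 ± 3.78 CPM in HuMgat2 chow libraries and 49.7 ± 13.2 CPM in the HFD ones, so it moved with Pklr at a lower level. Reads of the 2 genes in the shared bases cannot be told apart, and their part in the result was not tested.

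Per kilobase of exon, the scale on which genes can be set beside each other, the order of the means changed between groups. In WT on chow the highest levels were Me1 (84.3 ± 21.8 CPM per kb, SD, n = 4), Fasn (71.9 ± 15.3) and Mlxipl (67.8 ± 13.1), which lay within their spread of each other. In WT on HFD, Thrsp (186 ± 95.2), Fasn (121 ± 64.5) and Srebf1 (90.7 ± 27.9) came first, again with overlapping spreads. Pklr (78 ± 36.4) lay within the spread of Srebf1. In HuMgat2 on chow, Me1 (65.8 ± 2.13), Fasn (65 ± 8.51), Acly (64.1 ± 12.3), Mlxipl (59 ± 16.1) and Thrsp (54.3 ± 21.5) had overlapping spreads. In HuMgat2 on HFD, Fasn (210 ± 67.1), Pklr (174 ± 36.1), Me1 (170 ± 23.9), Acly (147 ± 50.5) and Thrsp (131 ± 48.8) formed a group within their spread, above Srebf1 (49.3 ± 10.2) and Mlxipl (42.3 ± 4.5). Pnpla3 was lowest throughout, at 0.202 ± 0.166 to 1.57 ± 1.04 CPM per kb.

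In WT mice, HFD against chow raised the factor Srebf1, its target Pnpla3, and Thrsp and Acacb. These 4 of 10 genes were higher and 0 lower at adjusted p below 0.05, where 8.37% of all tested genes were higher and 6.74% lower. The groups were without overlap, HFD above chow, for Srebf1 and Pnpla3, against 9.09% of all tested genes. The median log2 change of the 10 genes was 0.762, beside 0.034 over all tested genes. Without WT HFD library 4, 7 genes were called, with Acaca, Fasn and Pklr added. Library 3 of that group deviated the other way, with all 10 genes above the group mean (median deviation 0.81, against -0.85 in library 4). Over the fits that left out each library, the log2 changes of these 3 genes also fell. The lowest were 0.356 for Acaca (0.591 with all libraries), 0.342 for Fasn (0.745) and 0.475 for Pklr (0.778). Macrophage markers (7 genes) summed to 167 to 555 CPM in WT on HFD and 114 to 207 on chow, with 4 of 7 called higher. Adipocyte markers (6 genes) summed to 6.43 to 135 against 2.4 to 5.32. Adipoq and Lep were at 0 in every library of both groups and Plin1 in every HFD library. Cfd alone held 0.1589 to 129.9 CPM of that HFD sum, with 0.1589 CPM in library 4. Hepatocyte markers (7 genes) summed to 31700 to 56900 CPM on HFD and 63100 to 76200 on chow, without overlap. Of these 7, 3 had a positive and 4 a negative log2 change, and 0 were called. The part of these cells in the result was not tested.

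In HuMgat2 mice the synthesis enzymes themselves rose: Pklr, Acaca, Fasn, Acacb, Acly and Me1, with Pnpla3, while neither factor's own gene passed the edgeR test. DESeq2 called both, Srebf1 higher (adjusted p = 0.0319) and Mlxipl lower (0.0481). These 7 genes were higher and 0 lower, where 7.56% of tested genes were higher and 6.4% lower. The groups did not overlap for 8 of the 10, Thrsp included, where 11.6% of tested genes had all HFD libraries above all chow libraries. The median log2 change was 1.32, beside -0.013 over all tested genes. Several marker sums also parted between the diets in HuMgat2. Stellate cell markers (5 genes) summed to 340 to 408 CPM on HFD and 177 to 286 on chow, with 4 of 5 called higher. Macrophage markers (7 genes) summed to 182 to 222 against 137 to 179, with 0 of 7 called. Adipocyte markers (6 genes, Lep at 0 in every chow library) summed to 5.86 to 12 against 1.71 to 3.87. Only 2 of these 6 had enough counts to test (log2 0.344 and 5.66), and Cfd alone was called. Adipoq, Lep, Plin1 and Retn had 0 to 2 counts in each HuMgat2 library. Endothelial markers (5 genes) summed to 230 to 243 against 190 to 217, and cholangiocyte markers (4 genes) to 8.07 to 12 against 15.5 to 16.9. Hepatocyte marker sums overlapped between the diets, at 49200 to 61700 against 53000 to 77700, with 2 of 7 called lower. Their part in the result was not tested.

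**Figure D2:**
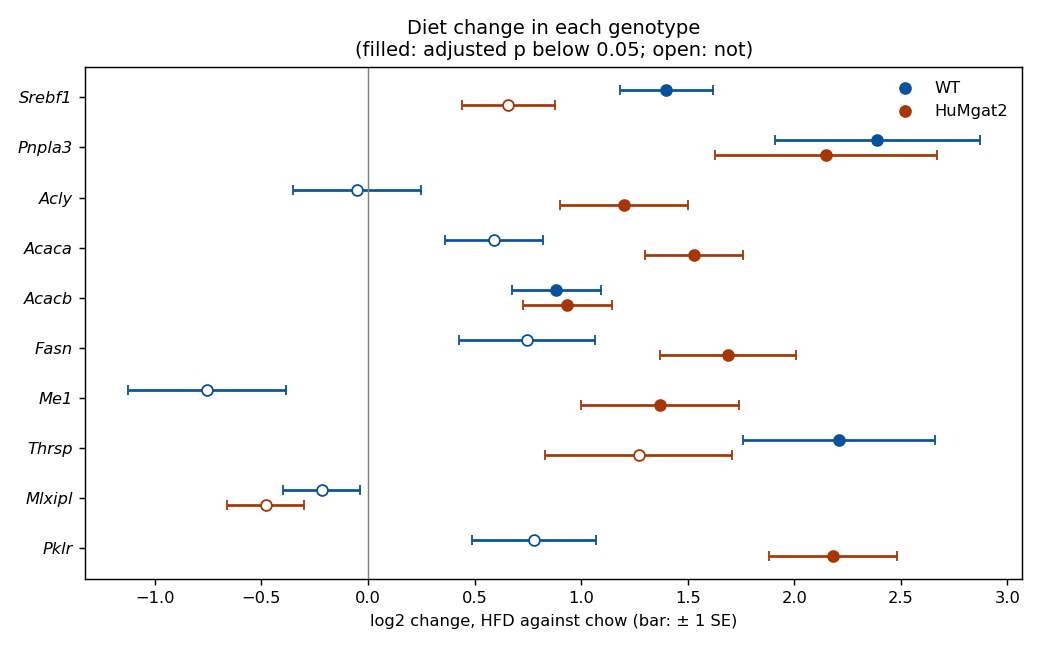
log2 change on HFD against chow (± 1 SE) for each of the 10 genes, in WT and HuMgat2 mice, with filled points for an adjusted p below 0.05. Srebf1 and Thrsp have the larger value in WT (1.40 and 2.21), while Acly, Acaca, Fasn, Me1 and Pklr have the larger value in HuMgat2 (1.2 to 2.18).

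On chow no difference between the genotypes passed the test for any of the 10 genes. By edgeR 0 were called, 0 had an unadjusted p below 0.05, and 0 were called by DESeq2. Over all tested genes 0.266% were higher and 0.243% lower in HuMgat2, and 3.39% had all HuMgat2 libraries above all WT libraries, which none of the 10 had. The intervals still allow sizeable differences: the Srebf1 log2 difference was -0.143 (interval -0.609 to 0.323), that of Fasn -0.145 (-0.81 to 0.519), and that of Pnpla3 -0.502 (-1.74 to 0.739).

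On HFD, Me1, Acly and Pklr were higher in HuMgat2 than in WT mice, and Srebf1 was lower. These are 3 genes higher and 1 lower, against 7.21% and 7.56% of all tested genes. Those 3 were also the ones with every HuMgat2 library above every WT library, which 10.9% of tested genes had. The direction of the factor's gene was thus opposite to that of 3 enzymes. Fitting only the HFD libraries left 2 calls, Acly and Me1, with adjusted p = 0.0533 for Srebf1 and 0.0525 for Pklr. Without WT HFD library 4 the Srebf1 log2 difference was -1.07, and those of Me1, Acly and Pklr were 1.44, 1.29 and 0.91, each still called. In this comparison 3 of 7 hepatocyte markers were called lower in HuMgat2 (median log2 -0.899). Their sum was 49200 to 61700 CPM against 31700 to 56900 in WT. Much of that sum is albumin, with a mean of 40900 CPM in HuMgat2 and 29700 in WT, where library 4 had 8390. Of 5 stellate cell markers 3 were called higher (summed 340 to 408 against 235 to 328). Macrophage markers summed to 182 to 222 CPM against 167 to 555 in WT, and adipocyte markers to 5.86 to 12 against 6.43 to 135, with Cfd called lower. The part of these cells was not tested.

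The change on HFD itself was compared between genotypes with an interaction term, which tests whether the diet change differed. Only Me1 passed, with a fold change on HFD that was 4.36 times the one in WT (log2 2.12 ± 0.52, SE; adjusted p = 0.0257), where 2.61% of tested genes were called in that direction and 2.26% in the other. The values of Pklr (1.40, adjusted p = 0.0591), Acly (1.25, 0.109), Acaca (0.935, 0.111), Fasn (0.945, 0.274), Thrsp (-0.944, 0.446) and Srebf1 (-0.737, 0.213) did not pass, so a call in 1 genotype alone does not show that the genotypes differed for them. The Me1 call was lost when WT HFD library 2 (adjusted p = 0.0514), WT chow library 8 (0.0568), HuMgat2 HFD library 10 (0.0541) or HuMgat2 chow library 15 (0.0539) was left out, so that 0 of the 10 genes were called. There were 4 calls without WT HFD library 3 (Me1, Acly, Acaca and Pklr), 3 when library 4 was the one left out (Me1, Pklr and, lower, Srebf1), and 2 for HuMgat2 HFD library 9 (Me1 and Acaca).

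The balance of the SREBP-1c and ChREBP related genes was read within each library as the ratio of Srebf1 to Mlxipl CPM and of Pklr to Srebf1 CPM. Srebf1 per Mlxipl was 0.459 to 0.684 in WT on chow and 1.19 to 1.93 on HFD, and 0.403 to 0.971 in HuMgat2 on chow and 1.04 to 1.56 on HFD. All 8 HFD libraries were therefore above all 8 chow libraries. Pklr per Srebf1 separated the genotypes on HFD, and the diets in HuMgat2 mice: it was 0.365 to 0.659 in WT on HFD and 1.91 to 2.26 in HuMgat2 on HFD, and 0.569 to 1.07 and 0.397 to 0.886 on chow, where the genotypes overlapped. These ratios were chosen with the single-gene values known and are a description.

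**Figure D3:**
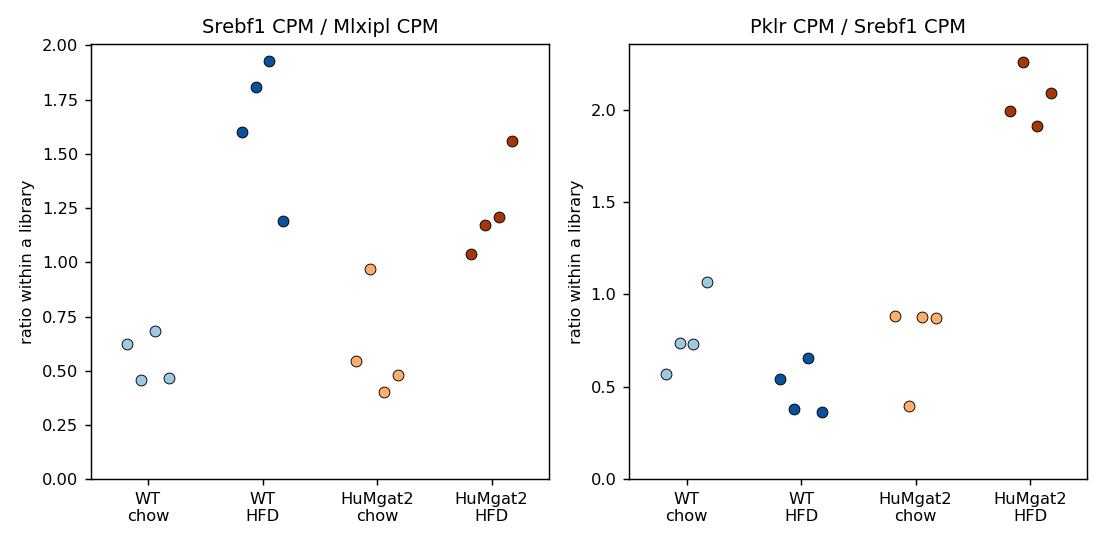
Ratio of Srebf1 to Mlxipl CPM (left) and of Pklr to Srebf1 CPM (right) in each library, on linear axes from 0, with 1 point per library and 4 libraries per group. The left ratio is 1.04 or more only in HFD libraries of both genotypes, and the right ratio is 1.91 or more only in HuMgat2 HFD libraries.

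In 5 libraries all 10 genes lay on 1 side of their group mean. WT HFD library 3 had all 10 above their group mean, with a median deviation of 0.81 on the log2 scale, and library 4 had all 10 below (-0.85). The same held for WT chow libraries 6 (0.25, all above) and 7 (-0.34, all below), and HuMgat2 HFD library 9 had all 10 below (-0.4). The HuMgat2 chow libraries were mixed, with 3, 6, 7 and 2 of the 10 above the mean in libraries 13 to 16. Feeding state at collection is not in the labels. After group means were removed, Pearson's r over the 16 libraries was 0.94 for Acly with Acaca, 0.93 for Acly with Fasn and 0.91 for Acaca with Fasn (0.94, 0.87 and 0.89 without WT HFD library 4). Srebf1 had r = 0.78 with Pnpla3 (0.69 without library 4) and 0.57 with Pklr (0.14 without it). Mlxipl had 0.22 to 0.63 with the others, and -0.014 (Acly) to 0.57 (Thrsp) without library 4. Srebf1 with Thrsp went from 0.35 to -0.17 and with Me1 from 0.61 to 0.087. The points share depth and library quality, so these values describe the libraries and carry no test.

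**Figure D4:**
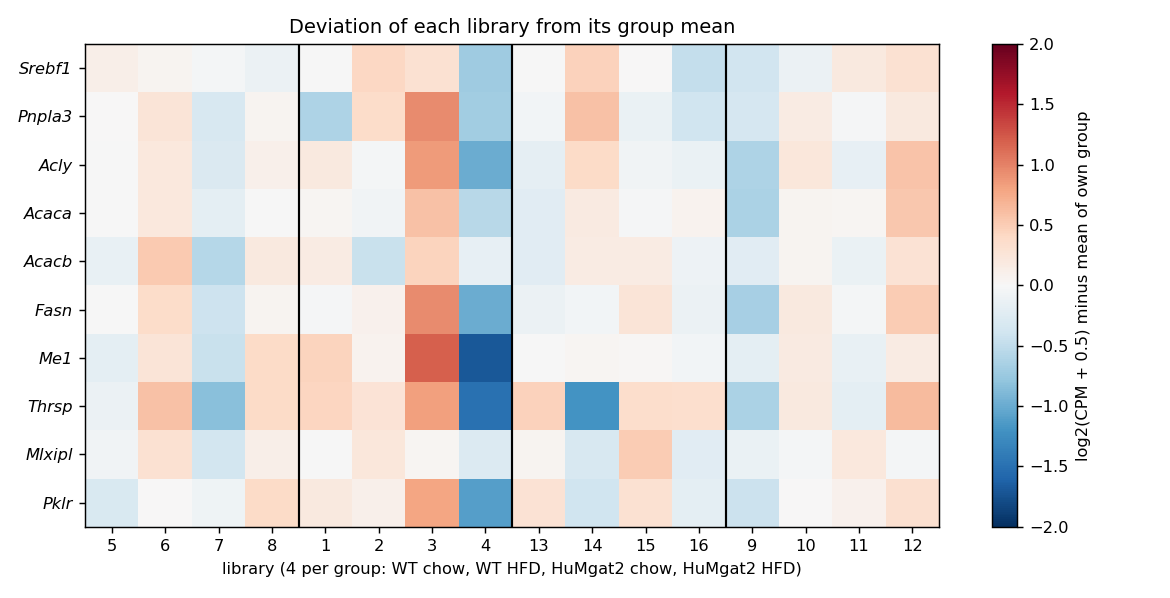
Deviation of each gene from its own group mean, as log2(CPM + 0.5), for the 16 libraries in group order. WT HFD libraries 3 and 4 stand out as the columns farthest above and below (median deviation 0.81 and -0.85), and Mlxipl is the palest line.

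Genes whose level was most like that of Srebf1 over the 16 libraries, among 14118 genes with a mean of at least 1 CPM, were Slc2a4 (r = 0.924), Cfap54 (0.916), Gnl1 (0.913), Nmrk1 (0.911) and Pnpla3 (0.906). For Fasn they were the elongase gene Elovl6 (0.963), Gm5182 (0.962), Acaca (0.962), Pklr (0.949) and Tbc1d31 (0.948). For Mlxipl they were Gm15883 (0.939), BC024386 (0.936), Clk4 (0.935), Pnisr (0.916) and Tnrc6a (0.915), none of them among the 10. Libraries of a group share diet and genotype, so these likenesses include the group differences.

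The counts of the following lists stand beside these shares of all tested genes. On HFD against chow 8.37% were higher and 6.74% lower in WT, and 7.56% and 6.4% in HuMgat2. Between the genotypes, 7.21% were higher and 7.56% lower in HuMgat2 on HFD, and 0.266% and 0.243% on chow. Of the machinery that holds or releases SREBP, 10 genes were tested. In WT on HFD, 3 of 10 were lower and 0 higher: the ubiquitin ligase gene Rnf139 (log2 -0.378), the SREBP-retaining Insig1 (-0.641) and Srebf2 (-0.469), the last 2 close to the threshold (adjusted p = 0.0458 and 0.0498). That count was 0 without WT chow library 5, or with only WT libraries fitted, and 1 without WT chow library 6 or 7, HuMgat2 HFD library 10 or HuMgat2 chow library 15 or 16. In HuMgat2 on HFD 2 were lower, the escort protein gene Scap (log2 -0.406; adjusted p = 0.014) and Rnf139 (-0.311; 0.0402). Scap was lost without HuMgat2 HFD library 12 (0.0556), when neither was called. Rnf139 was lost without WT chow library 5 or 7, any of the 4 HuMgat2 HFD libraries, or HuMgat2 chow library 13, 14 or 16 (0.0507 to 0.111). Other gene filters also lost the Rnf139 call (0.0507 to 0.137). On HFD, 3 were higher in HuMgat2 than in WT: Srebf2 (1.67-fold; adjusted p = 0.00473), Insig2 (1.96-fold; 0.0096) and Insig1 (1.71-fold; 0.0197). The Insig1 call was lost without HuMgat2 HFD library 9 (0.0637) or 10 (0.0554), and only Srebf2 was called with HFD libraries alone.

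SREBP-1c targets outside the 10 genes (14 tested) rose in part in each genotype. In WT on HFD 4 were higher and 1 lower, led by the desaturases Fads2 (2.67-fold; adjusted p = 0.00361) and Scd1 (3.25-fold; 0.0184), with Aacs (2.25-fold) and the lower Acss2 (log2 -0.772). Of these, Fads2 was called in every alternative. Scd1 was lost without WT chow library 5 (0.0623) or 7 (0.0606), Aacs without WT HFD library 3 or WT chow library 5, 7 or 8 (0.0603 to 0.0655), and Acss2 without WT HFD library 1, 2 or 4 or WT chow library 5, 6 or 8 (0.0641 to 0.133). Aacs (0.0769) and Acss2 (0.0926) were also lost with only WT libraries fitted. The WT count of 5 was 8 without WT HFD library 4, 3 without WT HFD library 1 or 3 or WT chow library 7 or 8, and 2 without WT chow library 5. In HuMgat2 on HFD 8 were higher and 0 lower, led by Elovl6 (4.88-fold; adjusted p = 3.25e-04), Aacs (4.06-fold), the glycerol phosphate acyltransferase gene Gpam (2.51-fold) and the elongase gene Elovl5 (3.82-fold). Scd1, with 10960 ± 8140 CPM for chow and 17110 ± 5360 CPM for HFD (SD, n = 4), was not among them (adjusted p = 0.372). The median log2 change of the list was 0.158 in WT and 0.657 in HuMgat2.

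On HFD, 8 of the 14 were higher in HuMgat2 than in WT and 0 lower, among them Gpam (2.15-fold; adjusted p = 0.00536) and Acss2 (1.79-fold; 0.0274), although Srebf1 itself was lower there. The count was 3 to 5 without WT HFD library 1, 2 or 4 or HuMgat2 HFD library 9 or 10, and 3 with only HFD libraries. Gpam was called in every alternative, and Acss2 was lost without each of those 5 libraries (adjusted p = 0.052 to 0.0914 for the libraries in turn). Acss2 was also lost with only HFD libraries (0.0566).

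Among ChREBP partners and targets outside the 10 genes (17 tested), the fructose-use genes Tkfc and Khk rose in HuMgat2 mice on HFD. Tkfc (triokinase) had 188.2 to 274.8 CPM on chow and 506.6 to 976.8 CPM on HFD (3.13-fold; adjusted p = 9.37e-05), and ketohexokinase Khk 145 to 216.5 and 319.6 to 465 CPM (2.28-fold; 1.93e-04). Fgf21, a secreted hepatic hormone, rose 6.63-fold (adjusted p = 5.70e-04) from a low level, 0.4834 to 1.898 CPM to 4.75 to 9.871 CPM. Together 5 were higher and 1 lower in HuMgat2, where 7.56% and 6.4% of all tested genes were. The 1 lower was Angptl8 (log2 -1.35, adjusted p = 0.0287), with 41.2 to 74.06 CPM on chow and 11.02 to 27.21 CPM on HFD. That call was lost without HuMgat2 HFD library 9, 10 or 12 or HuMgat2 chow library 13 or 15 (0.0506 to 0.0896). In WT 1 was higher and 2 lower, against 8.37% and 6.74% of all tested genes. Tkfc had 200 to 290.9 CPM on chow and 192.9 to 359.5 CPM on HFD in WT (adjusted p = 0.351). The median log2 change of the list was 0.335 in HuMgat2 and 0.127 in WT. The WT calls were G6pc (2.17-fold lower), Txnip (1.58-fold lower) and the partner gene Mlx (1.22-fold higher), and 1 of the 3 was left without WT chow library 7 or 8. G6pc was lost without WT chow library 6 (adjusted p = 0.059) or 8 (0.0505), Txnip without 7 (0.0632) or 8 (0.0764), and Mlx without 5 (0.0743), 7 (0.0526) or WT HFD library 1 (0.0542). With only WT libraries fitted, Txnip (0.0532) and Mlx (0.0875) were lost, and Mlx also with no filter on low counts (0.158).

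Between the genotypes on HFD, 6 genes of this list were higher in HuMgat2, led by Tkfc (2.56-fold, adjusted p = 5.59e-04), Fgf21 (4.6-fold, 0.00261) and Khk (1.81-fold, 0.00292). Mlxip, encoding MondoA, was lower (log2 -0.489, adjusted p = 0.0196). That call was lost without HuMgat2 HFD library 10 (0.0654) or 11 (0.0501) and with only HFD libraries fitted (0.0686). The larger diet change in HuMgat2 passed the interaction test for Fgf21 (log2 3.10; adjusted p = 0.00789) and Tkfc (1.34; 0.0155), each called in every alternative. By edgeR these were the only 2 of the 17 called, where 2.61% of all tested genes were higher and 2.26% lower. DESeq2 called 6 of the list there, but its share over all genes was not computed. On chow 1 of 17 was called, Klf10 (2.11-fold higher in HuMgat2; adjusted p = 0.0117), which was lost without WT chow library 5, 6 or 7 or HuMgat2 chow library 13 (0.0505 to 0.058).

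Pentose phosphate and glycolysis genes were called with the enzymes in HuMgat2 mice on HFD. Of 8 genes of NADPH supply and the pentose phosphate pathway, 3 were higher, all of that pathway. They were Pgd (2.68-fold, adjusted p = 4.93e-06), Tkt (2.07-fold, 1.99e-05) and Taldo1 (1.48-fold, 0.00108). H6pd and Mthfd1 of this list were not called, though their HFD ranges lay below their chow ranges. The share of all tested genes separated in that direction was not computed, so no result is drawn from these ranges. H6pd had 335.2 to 501.9 CPM on chow and 291.6 to 328.7 on HFD, and Mthfd1 187 to 218.2 and 158.1 to 179. Pgd had 33.19 to 35.32 CPM on chow and 68.41 to 112.8 CPM on HFD. In WT 0 of 8 were called by edgeR and 1 by DESeq2 or without WT HFD library 3, with 2 at an unadjusted p below 0.05, and G6pdx, the entry step, had 4.672 to 10.8 CPM over all libraries with no call. The interaction passed for Tkt (log2 1.35; adjusted p = 1.71e-04) and Pgd (1.25; 9.30e-04). Of 11 glycolysis genes 4 were higher in HuMgat2 on HFD, Eno1 (2.18-fold; adjusted p = 6.86e-05), Gpi1 (2.54-fold; 6.86e-05), Gapdh (1.64-fold; 0.00232) and Pfkl (1.39-fold; 0.0069), and 1 in WT, Pfkfb1 (2.05-fold; 0.00681), which was 2 without WT HFD library 1, 3 or 4. The calls named here for HuMgat2 on HFD held in every alternative.

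**Figure D5:**
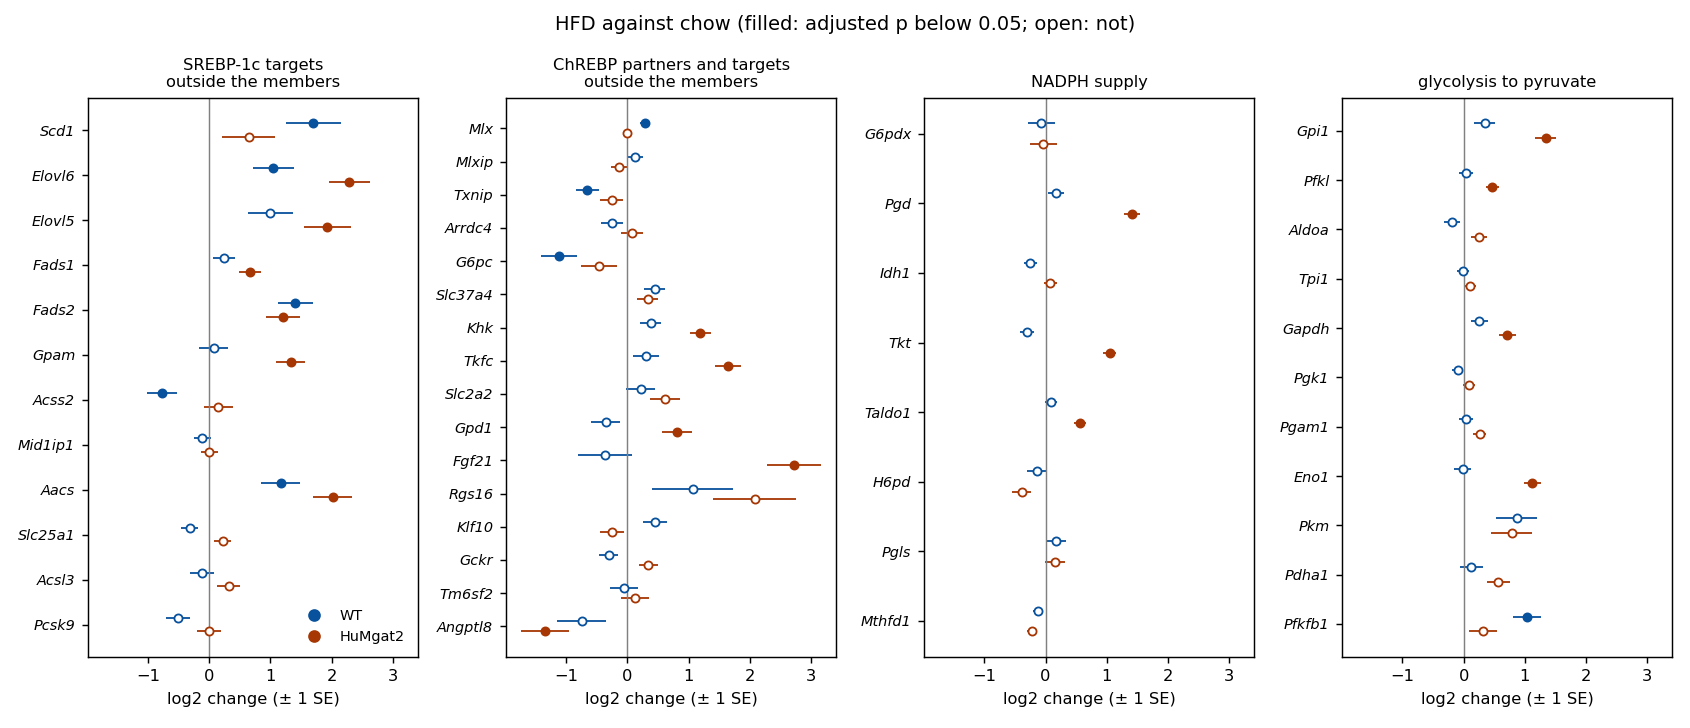
log2 change on HFD against chow (± 1 SE) in WT and HuMgat2 mice for genes of 4 lists, with filled points for an adjusted p below 0.05. Tkfc, Khk, Pgd, Tkt, Eno1 and Gpi1 lie between 1.05 and 1.64 in HuMgat2 and between -0.303 and 0.383 in WT, whereas Scd1 has the larger value in WT (1.70).

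The insulin receptor substrate genes, Irs1 and Irs2, changed to a different extent in the genotypes. Irs1 was lower on HFD in WT, with 60.43 to 79.93 CPM for chow and 18.67 to 30.67 CPM for HFD (2.62-fold; adjusted p = 2.23e-05). It was also lower in HuMgat2 on HFD (log2 -0.422; adjusted p = 0.0411), a call lost without WT chow library 5, HuMgat2 HFD library 9, 11 or 12, or HuMgat2 chow library 13, 15 or 16 (0.0551 to 0.115) and with other gene filters (0.0532 to 0.0785). Irs2 was lower on HFD in HuMgat2, with 30.18 to 46.17 CPM for chow and 14.24 to 21.77 CPM for HFD (2.13-fold; adjusted p = 2.46e-04), and was at 33.22 to 45.2 CPM in WT on HFD. Both differed in the interaction test, Irs1 with a log2 value of 0.967 (adjusted p = 0.0065) and Irs2 with -1.24 (0.00376), and both interaction calls held in every alternative. Of the 13 insulin signalling genes 1 was lower in WT, a share near the 6.74% of all tested genes, and 3 were higher and 3 lower in HuMgat2; the latter count of 6 was 3 without HuMgat2 HFD library 9 or 12 or HuMgat2 chow library 13 or 15. Among 12 nuclear receptors and cofactors, Pparg rose 2.87-fold (adjusted p = 0.00116) and Nr0b2, a repressor known as SHP, was 2.22-fold lower (0.00574) in HuMgat2 on HFD. That list had 1 higher and 2 lower in HuMgat2, and 5 called without WT HFD library 4, and 2 higher and 2 lower in WT, where 2 were left without WT chow library 6, 7 or 8. Of 9 genes of AMPK, the kinase that inactivates the carboxylases, and of its regulators and related factors, the catalytic subunit gene Prkaa1 was 1.39-fold lower in WT on HFD (adjusted p = 0.00118), as was Trib3 (log2 -1.10; 0.0142, and 0.0631 when only WT libraries were fitted). The AMPK subunit gene Prkab2 was higher in HuMgat2 on HFD (1.68-fold; 0.0153), a call lost without HuMgat2 HFD library 12 (0.0511) or HuMgat2 chow library 15 (0.0503). Its interaction value was 1.12 (0.0257; 0.051 to 0.0576 without WT chow library 5, HuMgat2 HFD library 9 or 12, or HuMgat2 chow library 13 or 15).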

How the data were processed

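The deposited table holds raw counts of read pairs per gene name for 16 libraries, and each library appears as 4 sample records. Per the labels' protocols, RNA came from 15 mg of liver with an integrity number above 7, and stranded total RNA libraries were made after ribosomal depletion. Per the file headers, the authors counted read pairs with featureCounts 2.0.1 on Ensembl 103 (GRCm39) with no strand option, from files whose names point to marked duplicates. The submitters' processing notes name STAR 2.7, mm39 and DESeq2 1.26.0.

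The 4 groups were fitted together with edgeR 4.0.16 under R 4.3.3, using its two-sided quasi-likelihood test after filterByExpr and TMM scaling, with Benjamini-Hochberg adjustment over 17318 genes and calls at adjusted p below 0.05. SE is the log2 change divided by the square root of F, and intervals are 95%. Depth was 12422647 to 25812129 counts per library. DESeq2 1.42.0 was an alternative, beside other scaling, filters, fits of the compared groups alone and leaving out each library. The method was tested on simulated data. All 10 genes are named. Of other lists, up to 4 called genes per comparison are named, smallest adjusted p first, with further SREBP, ChREBP and NADPH supply genes. The genes and lists were chosen with earlier results of these data known. Likeness used log2(CPM + 0.5). Promoters are RefSeq's on GRCm38.p6. Proteins were not used here. Values of some listed genes are not reported here, though the list counts include them.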

Additional observations from a re-analysis of the deposited data

Results flagged for a closer look

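In HuMgat2 mice on chow, 3 single values lay far from the other libraries of the group by Dixon's 95% criterion, over 40 groups of 4 libraries tested, where chance alone marks about 1 in 20 groups. Acly was at 435 CPM in library 14 and at 295.8, 306 and 316.4 CPM in the others. Fasn was at 806.8 CPM in library 15 and at 622.7, 623.1 and 649.5 CPM in the others. Thrsp was at 48.55 CPM in library 14 and at 138, 138.6 and 150 CPM in the others, so library 14 was high for Acly and low for Thrsp.

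The diet change of Me1 differed between the genotypes by a test of the difference itself, with a log2 value of 2.12 (edgeR, adjusted p = 0.0257) that ran from 1.8 to 2.58 over 21 alternatives, with adjusted p from 0.00153 to 0.0568. All 4 HuMgat2 HFD libraries were above all 4 HuMgat2 chow libraries, and 3 of 4 WT HFD libraries were below all 4 WT chow libraries.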

How the results depend on the processing

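Over 1089 combinations of a gene among the 10, a comparison and an alternative, 1029 kept direction and side of the threshold, 31 passed only under the alternative, 11 no longer passed, and 18 changed sign. The number of the 10 genes called in WT on HFD was 4 to 7 over the fits that left out each library, 5 to 9 in HuMgat2 on HFD, 0 in each for the genotypes on chow, 4 to 6 for the genotypes on HFD, and 0 to 4 for the difference of diet changes. Fitting only the compared groups gave 2 calls in place of 4 for the genotypes on HFD. For the difference of diet changes, 1 call became 3 with DESeq2 and 2 with no filter on low counts.

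Srebf1 in HuMgat2 on HFD passed with DESeq2 (adjusted p = 0.0319), with no filter (0.0403) and with only HuMgat2 libraries (0.0359). Every change of sign was of a log2 value that was not called. Leaving out libraries took Acly in WT on HFD from -0.393 to 0.191, Acacb between genotypes on chow from -0.233 to 0.138 and on HFD from -0.151 to 0.142, and the difference of diet changes from -0.549 to 0.602 for Pnpla3 and from -0.139 to 0.215 for Acacb. Acacb between genotypes on HFD was also 0.00791 with DESeq2, 0.0139 with no filter and 0.00521 without mitochondrial, rRNA and hemoglobin genes. The cause was not tested. No paired analysis was possible because the groups share no replicate numbers. Depth limits Pnpla3 most, with 2 to 112 counts per library.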
